A study of Homo sapiens with 6 samples.

Results

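The clustered histone genes encode the core histones H2A, H2B, H3 and H4 and the linker histones H1-1 to H1-6, and most of them lie side by side on chromosomes 6 and 1. They were followed here through every probe set whose annotated gene symbols, 1 or several, were all clustered histone genes under their current names. That rule gave 71 of the 54675 probe sets on the array: 20 for H2B, 16 for H2A, 16 for H4, 10 for H3, 7 for H1 and 2 that carry both H2A and H3 genes. Of these, 51 named 1 gene and 20 named several, up to 14, because the genes of a class are nearly identical in sequence. Together they named 64 genes. H2BC12L and H4C16 met the name rule although RefSeq places them on chromosomes 21 and 12. The H3-4 probe set, a histone gene under a former name only, was left out; it gave 4.27, 4.18 and 4.21 on the miR26a arrays against 4.12, 4.07 and 4.10 on the empty arrays of Namalwa, Raji and Ramos.

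Histones package DNA: an H3-H4 tetramer and H2A-H2B dimers form the nucleosome core, and an H1 linker histone binds where DNA enters and leaves it. The clustered genes are transcribed mainly during S phase from promoters that commonly hold TATA and CCAAT elements. Their mRNAs typically have no introns and end in a stem-loop, bound by SLBP, in place of a poly(A) tail, although polyadenylated forms exist.

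The samples came from Namalwa, Raji and Ramos, 3 lines of Burkitt lymphoma, a MYC-driven tumour of mature B cells, each with 1 array labelled miR26a and 1 labelled empty. All 6 share a doxycycline (Dox) treatment of 0.5 µg/ml for 72 h, which switched on the transfected miRNA; the labels list it for the empty samples too and do not describe the vector, its promoter or the number of clones. The series title concerns MYC, EZH2 and its negative regulator miR-26a, where EZH2 is the enzyme that methylates a lysine of histone H3. Affymetrix U133 Plus 2.0 arrays measured mRNA, so miR-26a itself was not measured.

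The mature miR-26a is shown because it is the agent that separates the groups. It is the RefSeq sequence (GRCh38.p14), written with U and with the seed, bases 2 to 8, in capitals; it is encoded at chr3:37969413-37969434 (plus strand) and at chr12:57824658-57824679 (minus strand). The labels do not say which arm was expressed.

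hsa-miR-26a-5p: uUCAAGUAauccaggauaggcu

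All values below are log2 intensities from RMA, a method that gives the probes of all arrays 1 shared distribution, so a shift of all RNAs together would not be seen. Array medians were 4.36 to 4.44. A probe set was tested if its mean over the 6 arrays reached 4.42, the median of the array without its controls, which left 32 of the 71 histone probe sets (11 H2B, 10 H2A, 5 H4, 4 H1 and 2 H3) and 27307 probe sets in all. Just inside that minimum were a probe set for H2BC11 and H2BC8 (mean 4.47) and H2BC15 (4.49), and just outside were H1-6 (4.31) and a probe set for H4C8 (4.27). The B cell markers CD79A, CD79B, MS4A1 and PAX5 lay between 7.24 and 12.37 on all arrays. Of the markers of other cells, 2 of 4 for T cells, 1 of 4 for fibroblasts, 0 of 4 for monocytes and 1 of 1 for red cells were above the minimum on every array, with highest values of 5.30, 7.15, 4.97 and 5.83. For the actin control probes, the 3′ value exceeded the 5′ value by 3.58 on the Namalwa empty array, against 1.80 to 1.98 on the other 5, a measure of RNA or cDNA integrity that touches the Namalwa values below; its part in them was not tested. With 1 array per line and group, and no statement of separate cultures, p-values measure only the spread among these arrays. In bulk RNA, fewer cells of a kind and less RNA per cell cannot be told apart. The One-Cycle kit primes cDNA with oligo(dT), so levels of histone mRNA here depend on polyadenylated RNA and on internal priming, which the arrays do not separate.

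The first comparison set the 3 miR26a arrays against the 3 empty arrays, to see whether induced miR-26a changed histone mRNA. Of the H3 probe sets, 1 rose. Most tested H2A and H2B probe sets lay higher in miR26a cells without passing the test singly. The differences of the tested H4 and most tested H1 probe sets lay near 0. The probe set that rose was 206110_at, which carries 10 H3 genes (H3C1, H3C2, H3C3, H3C4, H3C6, H3C7, H3C8, H3C10, H3C11 and H3C12) and was designed on H3C10, so which of them it reports is uncertain. It gave 5.51, 6.73 and 5.66 on the miR26a arrays of Namalwa, Raji and Ramos, against 4.39, 5.11 and 4.02 on the empty arrays. All 3 miR26a values lay above all 3 empty values, and in Namalwa and Ramos the empty values were below the level minimum. The mean was 5.97 ± 0.67 in miR26a cells and 4.50 ± 0.55 in empty cells (SD, n = 3 each), a difference of 1.46 ± 0.13 log2 (SE) or 2.75-fold (limma with line as a block, adjusted p = 0.0420). It was the highest of 27307 differences and the 1 probe set called, so the share of all tested probe sets called higher, 0.00366%, is this probe set itself. The call was lost without Raji (limma adjusted p = 0.123) and without Ramos (0.150), and kept without Namalwa (0.00442). It was also lost with the line as a random block (limma adjusted p = 0.276) and with no block (1.00).

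The other H3 probe sets lay closer to 0. A second probe set annotated with the same 10 genes, 214646_at, lay below the level minimum on average and differed by -0.04 log2. H3C8, the brightest H3 probe set of 1 gene, gave 5.51, 5.77 and 5.68 on the miR26a arrays against 5.38, 6.10 and 5.73 on the empty arrays. The groups overlapped, and the difference was -0.08 ± 0.12 log2 (SE; limma adjusted p = 0.847). The 8 H3 probe sets below the minimum on average, 214646_at among them, differed by -0.14 log2 (H3C11) to 0.14 (H3C7). The brightest probe set that joins both classes, for H2AC7 and H3C4, was below the minimum too, with 4.57, 4.30 and 4.14 on the miR26a arrays against 3.98, 4.13 and 4.28 on the empty arrays.

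Over the whole set, 15 of the 32 tested histone probe sets were higher in miR26a cells at an unadjusted p under 0.05, against 6.94% of all tested probe sets, and 0 were lower, against 5.35%. They were higher in all 3 lines in 16 of 32 cases, against 17.9% of all probe sets, and lower in all 3 in 2 of 32, against 16.3%. The 3 miR26a arrays lay above the 3 empty arrays for 7 of 32, against 2.2%. Some H2B probe sets, 210387_at and 215779_s_at (both H2BC11 with H2BC8) and that of H2BC15, reached the level minimum only through the miR26a arrays. Their means were 4.77, 4.69 and 4.56 in miR26a cells and 4.25, 4.25 and 4.41 in empty cells. The first 2 are among the 15, and all are among the 16 higher in all 3 lines. The median difference of the 32 was 0.28 log2, beside 0.01 for all tested probe sets, and over all 71 it was 0.10. Probe sets that carry the same genes share sequence and are not independent: of the 15, 8 named 1 gene and 7 several. The median difference was 0.15 log2 for the 21 tested probe sets of 1 gene and 0.44 for the 11 of several. For the 13 tested probe sets with names ending in _x_at it was 0.35 log2, with 6 of the 15 among them. The other 19 had a median of 0.15 log2 and held 9 of the 15.

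Most of these were H2A and H2B probe sets: 13 of 21 were higher at an unadjusted p under 0.05 and 14 of 21 were higher in all 3 lines, while of the H1, H3 and H4 probe sets 2 of 11 were higher on each count. Whether the classes differ was not tested. The medians of the tested probe sets were 0.44 log2 for H2B, 0.26 for H2A, 0.05 for H1 and -0.03 for H4.

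**Figure D1:**
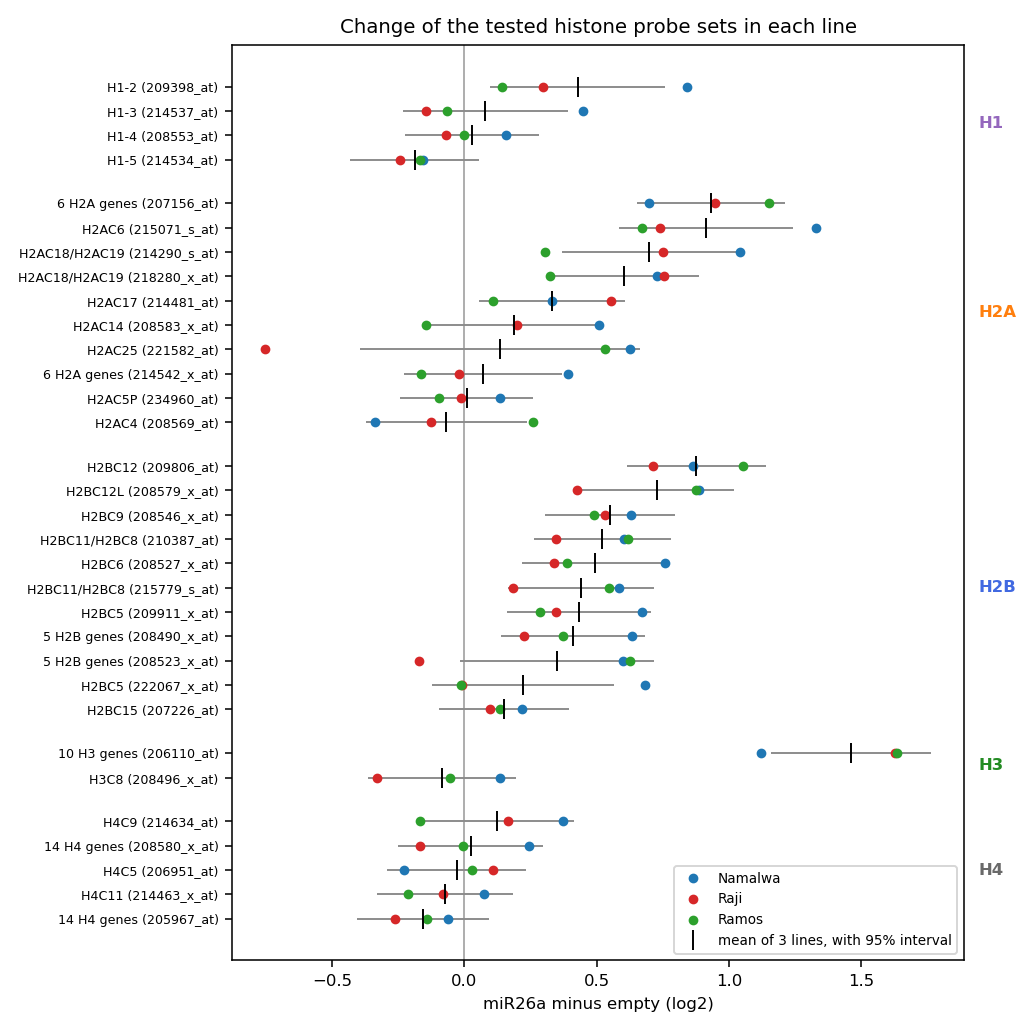
Difference between the miR26a and the empty array (log2, horizontal axis) for the 32 tested histone probe sets, grouped by class; dots are the 3 lines, the tick is their mean and the grey bar its 95% interval from limma. The 10-gene H3 probe set stands farthest right at 1.46, all 11 H2B means lie above 0, and the H4 means lie between -0.16 and 0.12.

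Among the H2A probe sets, which give the partners of H2B in the dimer, 4 differed by at least 0.5 log2 in the same direction in 3 lines. Whatever the sign in each line and tested or not, 4 of 16 H2A probe sets had a mean at least 0.5 log2 higher. The count was 364 of 54613 for the array without its controls. The highest H2A difference came from 207156_at, for 6 H2A genes and designed on H2AC11. It gave 5.49, 5.79 and 5.85 on the miR26a arrays of Namalwa, Raji and Ramos against 4.79, 4.85 and 4.70 on the empty arrays. The groups did not overlap and the difference was 0.93 ± 0.12 log2 (SE; limma adjusted p = 0.131). A second probe set for the same 6 genes, 214542_x_at, differed by 0.07 log2, so the 2 did not show the same difference. H2AC6, a single H2A gene, gave 7.03, 6.57 and 5.24 on the miR26a arrays against 5.70, 5.83 and 4.56 on the empty arrays. Each line was higher with miR26a, but Ramos lay so far below the others that the groups overlapped; the difference was 0.91 ± 0.14 log2 (SE; limma adjusted p = 0.131).

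The pair of genes H2AC18 and H2AC19, which lie on chromosome 1, was read by 3 probe sets. The brightest of the H2A class, 214290_s_at, gave 7.75, 8.35 and 7.90 on the miR26a arrays against 6.71, 7.60 and 7.59 on the empty arrays. 218280_x_at gave 7.25, 7.68 and 7.25 against 6.52, 6.92 and 6.93. Neither overlapped between the groups, and they differed by 0.70 ± 0.15 and 0.60 ± 0.13 log2 (SE; limma adjusted p = 0.158 and 0.150). The remaining one, 218279_s_at, was below the minimum on every array and differed by 0.16 log2. The other 6 tested H2A probe sets differed by -0.07 to 0.33 log2, with H2AC17 at the top and H2AC4 at the bottom.

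Among the H2B probe sets, all 11 tested had a mean difference above 0, from 0.15 log2 for H2BC15 to 0.88 for H2BC12. H2BC12, the brightest of them, gave 9.87, 10.29 and 9.74 on the miR26a arrays of Namalwa, Raji and Ramos against 9.00, 9.58 and 8.69 on the empty arrays. The groups did not overlap and the difference was 0.88 ± 0.12 log2 (SE) or 1.84-fold (limma adjusted p = 0.131); with an intensity trend and a robust prior in limma its adjusted p was 0.0387, and in its other 10 alternatives it was not called (0.0730 to 1.00). H2BC12L on chromosome 21, a near copy whose signal may be shared with H2BC12, gave 7.97, 8.43 and 8.09 against 7.08, 8.00 and 7.22, with a difference of 0.73 ± 0.13 log2 (SE).

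H2BC9 gave 5.60, 5.84 and 5.74 on the miR26a arrays against 4.97, 5.30 and 5.25 on the empty arrays. Its groups did not overlap, and the difference was 0.55 ± 0.11 log2 (SE; limma adjusted p = 0.147). The probe set 210387_at, for H2BC11 and H2BC8, gave 5.29, 3.27 and 5.74 against 4.68, 2.93 and 5.13. It was higher with miR26a in each line, by 0.52 ± 0.11 log2 (SE; limma adjusted p = 0.165), but both Raji arrays lay below the level minimum. The other tested H2B probe sets, for H2BC5, H2BC6, H2BC15, H2BC11 with H2BC8, and a group of 5 H2B genes, differed by 0.15 to 0.50 log2.

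**Figure D2:**
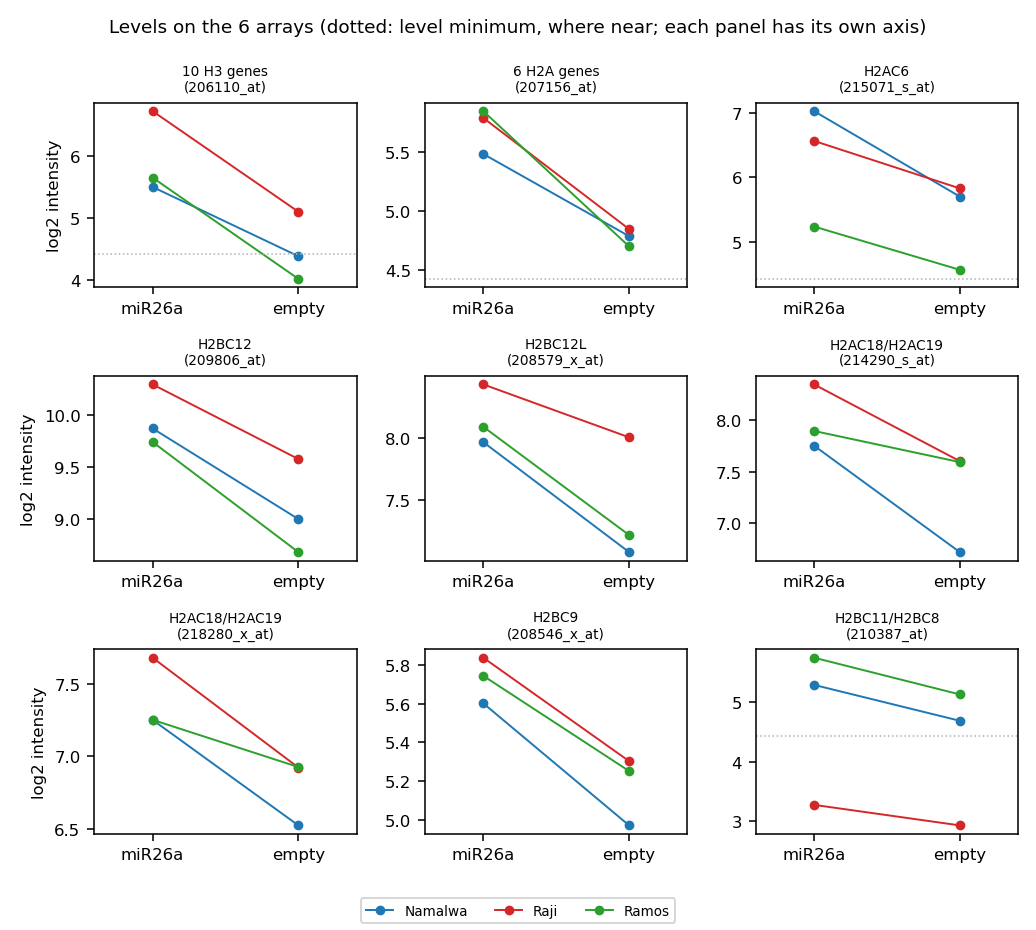
Level (log2 intensity, vertical axis, 1 scale per panel) on the miR26a and the empty array of each line for the 9 tested histone probe sets that differed by at least 0.5 log2 in the same direction in 3 lines. By this choice the 3 lines of a panel slope alike, here down to the empty array. For 210387_at both Raji points lie below the dotted level minimum of 4.42.

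The tested probe sets for H4, the partner of H3 in the tetramer, had differences close to 0. The brightest probe set of its class was 205967_at, which carries 14 H4 genes and was designed on H4C3. It gave 11.89, 11.33 and 11.12 on the miR26a arrays of Namalwa, Raji and Ramos, against 11.95, 11.59 and 11.26 on the empty arrays. Each line was slightly lower with miR26a and the groups overlapped; the difference was -0.16 ± 0.11 log2 (SE; limma adjusted p = 0.631), with a 95% interval of -0.40 to 0.09. Of the 5 probe sets that carry these 14 genes, 2 were tested, and the second, 208580_x_at, differed by 0.02 log2. All 5 differed by -0.23 to 0.21 log2, with both ends from probe sets below the level minimum. The other tested H4 probe sets, for H4C5, H4C9 and H4C11, differed by -0.07 to 0.12.

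Of the linker histones, H1-2, the brightest, gave 6.60, 6.08 and 5.76 on the miR26a arrays against 5.76, 5.78 and 5.62 on the empty arrays. The Namalwa miR26a array stood highest, the groups overlapped, and the difference was 0.43 ± 0.15 log2 (SE; limma adjusted p = 0.293); it was 0.22 without Namalwa. H1-3 and H1-4 differed by 0.08 and 0.03 log2. H1-5 gave 5.05, 4.82 and 5.14 against 5.21, 5.06 and 5.30, lower in each line but not past the test, with a difference of -0.19 ± 0.11 log2 (SE; limma adjusted p = 0.538). H1-1 and both H1-6 probe sets were below the minimum on average.

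The 39 probe sets below the level minimum had a median difference of 0.06 log2, with values from -0.23 to 1.30. None of these was tested, and those of H2BC4 and H4C8 are named because of values already seen. The probe set 214455_at, for 5 H2B genes and designed on H2BC4, gave 5.18, 5.03 and 3.37 on the miR26a arrays against 3.83, 3.09 and 2.75 on the empty arrays. The probe set of H2BC4 alone gave 3.86, 4.43 and 3.46 against 3.13, 3.28 and 2.77, and all its miR26a values lay above its empty values. Of the H4 genes, H4C8 was higher with miR26a in each line on both of its own probe sets: 208180_s_at gave 4.18, 3.60 and 3.61 against 2.90, 2.88 and 3.09, and 232035_at gave 5.01, 4.28 and 4.48 against 3.96, 3.69 and 4.21. Another probe set designed on H4C8, but annotated with 14 H4 genes, differed by -0.23 log2. All empty values of these probe sets lay below the level minimum, so each difference is taken from a low signal. Of the miR26a values, 5.18 and 5.03 on 214455_at, 4.43 for H2BC4 alone, and 5.01 and 4.48 on 232035_at lay above it. The other miR26a values lay below the level minimum.

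The median difference was largest in Namalwa, without a test of the lines against each other. The median over the 32 tested probe sets was 0.59 log2 in Namalwa with 28 of them higher with miR26a, 0.18 in Raji with 19 higher and 0.20 in Ramos with 21 higher; over all tested probe sets the medians were 0.01 in Raji and 0.01 in Ramos, with a value just under 0 in Namalwa. Namalwa, the line with the largest median, is also the line whose empty array had the wide actin interval. Without Namalwa, the median was 0.17 log2 and 14 of the 32 were higher at an unadjusted p under 0.05, with 1 called. Of all 27307 tested probe sets, 2962 had an unadjusted p under 0.05 without Namalwa, higher or lower. Across the 32 probe sets the differences of 2 lines correlated at r = 0.649 (Namalwa and Raji), 0.653 (Namalwa and Ramos) and 0.692 (Raji and Ramos), against 0.110, 0.295 and 0.206 over all tested probe sets; the points share probe sequences, so this is a description. Of the 6 genes with 2 probe sets of their own, none had differences of opposite sign of at least 0.3 log2 each.

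Along chromosome 6, where the histone genes follow each other in alternating classes, neighbouring genes did not differ together as a block. H2BC4 and H2AC6, adjacent and read in opposite directions, differed by 0.86 log2 (the H2BC4 probe set of 1 gene) and 0.91. That H2BC4 probe set lay below the level minimum, was not tested and is named for its value. The next neighbours of H2BC4 and H2AC6 with a probe set, H1-6 and H1-4, differed by -0.03 and 0.20 (2 probe sets) and by 0.03. H2AC11 and H2BC12, adjacent further along, differed by 0.93 (on the 6-gene probe set) and 0.88, while H4C9 beside them differed by 0.12. The second probe set of these 6 H2A genes, designed on H2AC13, differed by 0.07. On the other side, H2BC11 differed by 0.10 on its own probe set, which was below the level minimum. It differed by 0.52 and 0.44 on the 2 probe sets shared with H2BC8.

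**Figure D3:**
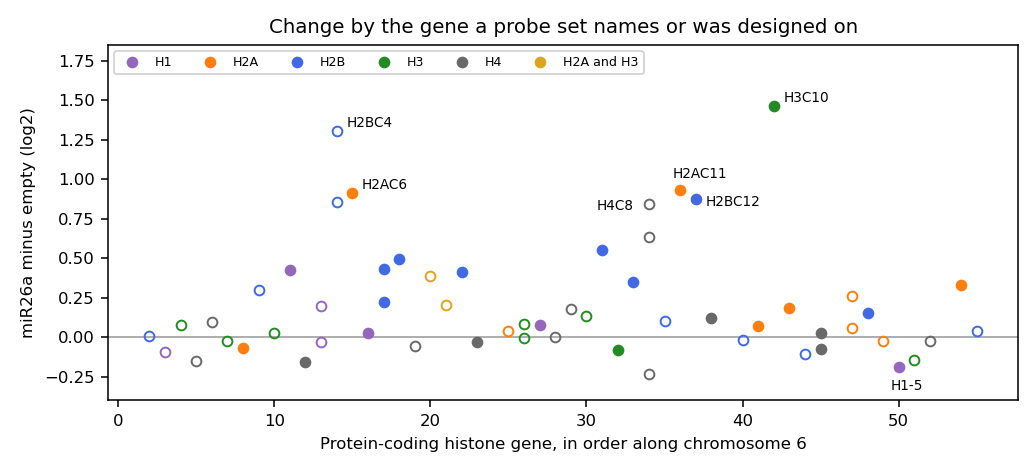
Difference between miR26a and empty (log2, mean of 3 lines, vertical axis) against the order of the protein-coding histone genes along chromosome 6. Filled points were tested, and open points lie below the level minimum. A probe set of several genes stands at the gene it was designed on. Where that gene was not matched, as for 210387_at (0.52), 215779_s_at and 214646_at, the probe set is not drawn. The points above 0.5 (H2BC4, H2AC6, H4C8, H2AC11, H2BC12, H3C10 and the unlabelled H2BC9) fall in several places along the order, with points near 0 in between.

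The promoter stretches of 4 genes are printed to show the elements that were counted in each class: H2BC12 and H2AC6 as the H2B and H2A genes with the highest tested difference on a probe set of 1 gene, H3C10 as the gene 206110_at was designed on, and H1-5 as the gene with the lowest tested difference. Each is the 160 bases that end just before the annotated gene start, 5′ to 3′ on the gene's strand, from RefSeq (GRCh38.p14). Capitals mark the TATA element (searched as TATAAA), the box read as CCAAT, and the octamer written ATTTGCAT, all searched on both strands. They lie at chr6:27146859-27147018 (H2BC12, minus strand), chr6:26124012-26124171 (H2AC6, plus), chr6:27809891-27810050 (H3C10, plus) and chr6:27867589-27867748 (H1-5, minus).

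H2BC12 promoter: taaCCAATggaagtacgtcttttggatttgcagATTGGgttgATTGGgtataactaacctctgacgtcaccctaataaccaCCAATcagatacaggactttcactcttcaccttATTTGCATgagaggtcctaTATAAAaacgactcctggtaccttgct
H2AC6 promoter: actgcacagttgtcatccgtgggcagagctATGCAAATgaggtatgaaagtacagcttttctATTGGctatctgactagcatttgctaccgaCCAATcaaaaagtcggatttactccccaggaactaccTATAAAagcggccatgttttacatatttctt
H3C10 promoter: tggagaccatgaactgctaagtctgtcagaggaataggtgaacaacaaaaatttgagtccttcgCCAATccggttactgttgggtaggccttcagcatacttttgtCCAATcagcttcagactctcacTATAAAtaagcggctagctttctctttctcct
H1-5 promoter: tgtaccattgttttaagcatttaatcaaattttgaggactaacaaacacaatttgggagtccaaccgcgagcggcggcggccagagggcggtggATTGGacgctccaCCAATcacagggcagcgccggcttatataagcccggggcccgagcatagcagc

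The octamer, the site bound by POU-domain factors such as POU2F1, was in the stretches of H2BC12 and H2AC6, and these letters were not in those of H3C10 and H1-5. In the 250 bases before the start it was in 13 of 16 H2B promoters, 8 of 13 H2A, 1 of 8 H3, 0 of 6 H1 and 0 of 13 H4, and in 39.3% of the 56 member promoters in the table, against 1.66% of all 27305 promoters. CCAAT was in 82.1% against 33.0%, in every H1, H2A, H2B and H3 promoter and in 3 of 13 H4 promoters. TATAAA was in 64.3% against 11.1%. It can overlap its own reverse complement, and each promoter was counted once. Some neighbouring genes, such as H2AC14 and H2BC14, had equal counts of each element. So did H2AC7 and H3C4, the H3 gene with the octamer. Whether such stretches overlap was not checked, so the promoters may not be independent. Among the tested H2A and H2B probe sets of 1 gene, the 7 with the octamer had a median difference of 0.50 log2 and the 4 without it 0.19. The ranges overlap (-0.07 to 0.91 and 0.14 to 0.43), and the 4 include both H2BC5 probe sets. With the probe sets below the level minimum added, the medians were 0.24 for 16 with the octamer and 0.14 for 8 without it. Whether the octamer goes with the difference was not tested. A match is a description of letters, not of binding.

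The genes that serve the clustered histones were then read from 4 lists. No member of any list passed the test for miR26a against empty in limma. Of the S phase genes, 22 of 24 were lower in all 3 lines, against 16.3% of all tested probe sets. At an unadjusted p under 0.05, 18 of 24 were lower, against 5.35%, and the median was -0.34 log2. CDC6, which loads the replicative helicase, gave 6.66, 7.52 and 6.64 on the miR26a arrays of Namalwa, Raji and Ramos against 7.56, 8.08 and 7.37 on the empty arrays. CCNE2 (cyclin E2) and CDT1, a licensing factor, differed by -0.65 and -0.61 log2 (limma adjusted p = 0.131 each). The S phase genes thus lay lower on the same arrays on which most tested H2A and H2B probe sets lay higher.

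Of the genes for histone gene transcription, stem-loop processing and decay, 17 of 30 were lower in all 3 lines and 2 of 30 higher. The shares of all tested probe sets were 16.3% and 17.9%. At an unadjusted p under 0.05, 5 of 30 were lower, against 5.35%, and 0 higher, against 6.94%. The median of the list was -0.12 log2. SLBP, the stem-loop binding protein, gave 9.39, 9.03 and 9.66 on the miR26a arrays against 9.82, 9.20 and 10.03 on the empty arrays. Each line was lower with miR26a, by 0.18 to 0.43 log2, and the groups overlapped. CASP8AP2, which acts with the histone gene coactivator NPAT, and CPSF3, the endonuclease that cuts histone mRNA, differed by -0.38 and -0.36 log2, and NPAT by -0.22.

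Among the histone chaperones, 10 of 23 were lower in all 3 lines, against 16.3% of all tested probe sets, and 2 higher, against 17.9%. At an unadjusted p under 0.05, 7 were lower, against 5.35%, and 1 higher, against 6.94%. CHAF1A, a subunit of the assembly factor CAF-1, gave 7.19, 7.43 and 7.36 on the miR26a arrays against 8.20, 7.94 and 7.94 on the empty arrays. Its groups did not overlap, and the difference was -0.70 ± 0.13 log2 (SE; limma adjusted p = 0.131). ATRX, a remodeller that deposits H3.3 with DAXX, differed the other way, by 0.43 log2. Of the replacement histones encoded outside the clusters, 0 of 10 were higher and 5 of 10 lower in all 3 lines. The shares of all tested probe sets were 17.9% and 16.3%. At an unadjusted p under 0.05 there were 0, against 6.94% higher and 5.35% lower of all tested probe sets. The median of these replacement histones was -0.13 log2. The largest difference among them was that of H3-3A, at -0.37 log2. Namalwa gave -1.18, Raji 0.15 and Ramos -0.09, so the mean rests on Namalwa, whose empty array stood highest at 7.16.

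**Figure D4:**
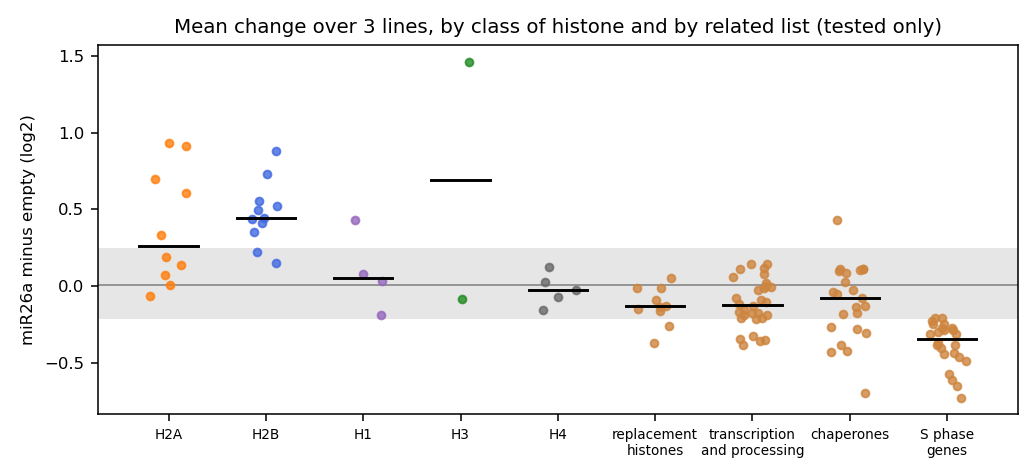
Mean difference between miR26a and empty over 3 lines (log2, vertical axis) for the tested histone probe sets by class and for the tested genes of the 4 related lists; black bars are medians, and the grey band spans the 10th to 90th percentile of all tested probe sets. The H2B points lie mostly above the band (median 0.44) and the S phase points mostly below it (median -0.34).

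The second comparison set the lines against each other, with miR26a or empty as a block and 2 arrays a line. Raji differed from Namalwa at an adjusted p under 0.05 in limma for 7 histone probe sets higher and 5 lower of 32, against 18.1% and 23.2% of all tested probe sets. Raji differed from Ramos for 6 higher and 5 lower, against 20.3% and 25.7%. Namalwa differed from Ramos for 3 higher and 2 lower, against 5.69% and 5.64%. Each of these histone counts lies near the share of all tested probe sets or below it. The 2 comparisons of Raji share the Raji arrays; 3 probe sets were higher and 4 lower in Raji in both.

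Of the 5 probe sets lower in Raji in each comparison, 2 carry H2BC11 and H2BC8 and passed the level minimum through Namalwa and Ramos, so their Raji levels are near background and no size of difference is given. On 210387_at, Raji gave 3.27 and 2.93 on its miR26a and empty arrays, against 5.29 and 4.68 in Namalwa and 5.74 and 5.13 in Ramos. The second probe set of this gene pair, 215779_s_at, gave 3.81 and 3.63 in Raji against 5.06 and 4.48 in Namalwa and 5.18 and 4.63 in Ramos. Both Raji values of each probe set were below the minimum of 4.42, and all values of the other 2 lines were above it.

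H1-3 gave 4.59 and 4.73 on the miR26a and empty arrays of Raji, 5.87 and 5.42 in Namalwa, and 6.46 and 6.53 in Ramos. The 3 lines did not overlap, in the order Raji, Namalwa, Ramos. The differences were -0.99 ± 0.17 log2 for Raji minus Namalwa, -1.84 ± 0.17 for Raji minus Ramos and -0.85 ± 0.17 for Namalwa minus Ramos (SE; limma adjusted p = 0.00144, 2.98e-05 and 0.0137). The last of these was not called without the Namalwa empty array (limma adjusted p = 0.0772) or without either Ramos array (0.174 without empty, 0.0726 without miR26a).

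H2AC25, a histone gene on chromosome 1 gave 4.89 and 5.64 on the miR26a and empty arrays of Raji, 6.79 and 6.16 in Namalwa, and 6.69 and 6.16 in Ramos. Raji was the lowest line on both arrays, with differences of -1.21 ± 0.29 log2 for Raji minus Namalwa and -1.16 ± 0.29 for Raji minus Ramos (SE; limma adjusted p = 0.00827 and 0.00928). The first was -0.84 without the Namalwa miR26a array and no longer called (limma adjusted p = 0.0595), and ranged from -1.88 to -0.54 over all arrays left out.

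H2AC6 was lowest in Ramos, at 5.24 and 4.56 on its miR26a and empty arrays, against 6.57 and 5.83 in Raji and 7.03 and 5.70 in Namalwa. The differences were 1.30 ± 0.18 log2 for Raji minus Ramos and 1.47 ± 0.18 for Namalwa minus Ramos (SE; limma adjusted p = 0.000340 and 0.00136); with no replicate block the second was not called (0.0673). H2BC5 was also lowest in Ramos on 209911_x_at, at 6.17 and 5.88, against 7.05 and 6.70 in Raji and 7.11 and 6.44 in Namalwa. It differed by 0.85 log2 for Raji minus Ramos and 0.75 for Namalwa minus Ramos (limma adjusted p = 0.00137 and 0.0133); the second call was lost without the Namalwa miR26a array or without either Ramos array (adjusted p of 0.0698 to 0.177) and with no replicate block (0.0913). The second H2BC5 probe set, 222067_x_at, gave 7.26 and 7.27 in Raji, 7.12 and 6.43 in Namalwa, and 6.64 and 6.65 in Ramos. It was called for Raji minus Ramos (0.62 log2, limma adjusted p = 0.0228) and not for Namalwa minus Ramos (0.13 log2, 0.706), where the lines overlapped.

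The 10-gene H3 probe set 206110_at was highest in Raji, by 0.97 ± 0.16 log2 over Namalwa and 1.08 ± 0.16 over Ramos (SE; limma adjusted p = 0.00131 and 0.000628); neither was called with no replicate block (0.258 and 0.195). Among the other probe sets called higher in Raji, the difference was 0.74 log2 for the H2AC18 and H2AC19 probe set 214290_s_at and 0.70 for H2BC12L, both for Raji minus Namalwa (limma adjusted p = 0.00901 and 0.00644). The first was lost without the Namalwa empty array (limma adjusted p = 0.0850) and the second without the Raji empty array (0.0795), and both with no replicate block (0.119 and 0.142).

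H2AC17 was lowest in Namalwa, at 4.81 and 4.47 on its miR26a and empty arrays, against 5.41 and 5.30 in Ramos, a difference of -0.72 log2 for Namalwa minus Ramos (limma adjusted p = 0.0165). The 14-gene H4 probe set 205967_at was highest in Namalwa, by 0.73 log2 over Ramos (limma adjusted p = 0.00998). The H2AC17 call was lost without the Namalwa empty array (limma adjusted p = 0.0517) or either Ramos array (0.261 without empty, 0.0604 without miR26a), and with no replicate block (0.0670). The H4 call was lost without either Ramos array (0.127 without empty, 0.109 without miR26a).

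**Figure D5:**
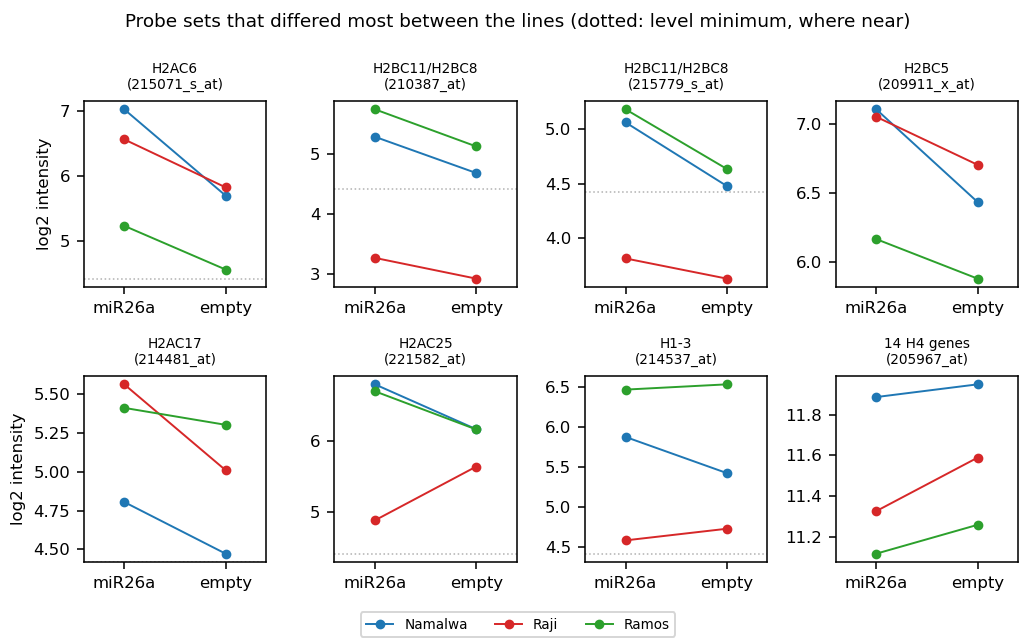
Level (log2 intensity, vertical axis, 1 scale per panel) on the miR26a and the empty array of each line for 8 histone probe sets with large line differences. Raji lies lowest for both H2BC11 and H2BC8 probe sets, for H2AC25 and for H1-3, Ramos lies lowest for H2AC6 and H2BC5, and the H2AC25 line of Raji slopes up to the empty array while the other 2 slope down.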

How the data were processed

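Total RNA (1 µg) from 6 samples was labelled with the One-Cycle kit and hybridised to U133 Plus 2.0 arrays, per the labels' protocols. The authors deposited log2 intensities made with RMA in BRB Array Tools from GCOS scans, per the labels' design text and the submitters' processing notes, without versions. Nothing was normalised again for the main values, and no detection calls or batches were given.

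Symbols came from the platform annotation, updated through Entrez IDs with RefSeq (GRCh38.p14, names and gene order only): 41092 probe sets had 1 symbol, 1800 several and 11721 none. All 64 member genes and 56 of their promoters were matched. Members, lists and naming rules were chosen with earlier results of these data known.

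limma 3.58.1 (R 4.3.3) was fitted on all 6 arrays with line and group as terms, two-sided, with Benjamini-Hochberg adjustment over 27307 probe sets and a threshold of 0.05; a list gene is its brightest probe set of 1 symbol. The fit was tested on simulated data. Same-line deviations from the group means correlated at 0.811 (Namalwa), 0.937 (Raji) and 0.894 (Ramos), each highest for its own line, so lines pair the arrays. Named were members called, members differing by at least 0.5 log2 alike in 3 lines, the brightest of each class, the 3 widest calls per direction of each line pair, and the list members with the largest difference. Alternatives were the block, the level minimum, the scaling, limma's prior, 1 probe set a gene, a difference of 1 log2, and leaving out lines or arrays. The number of arrays limits the precision.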

Additional observations from a re-analysis of the deposited data

Results flagged for a closer look

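H2AC25 was singled out because its difference between miR26a and empty had opposite signs in the lines. It was -0.75 log2 for Raji, but 0.63 for Namalwa and 0.53 for Ramos. With 1 array per line and group, the difference between the lines was not tested. The second H2AC25 probe set, 231681_x_at, was below the level minimum and differed by -0.16 log2 in Raji, -0.06 in Namalwa and 0.06 in Ramos.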

How the results depend on the processing

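For miR26a against empty, 1 histone probe set was called. The count was 0 without the replicate block by line (unadjusted p under 0.05: 7 higher, 0 lower) and 0 with a random replicate block (14 higher, 0 lower). It was 0 after a further quantile normalisation (15 higher, 0 lower), where the limma adjusted p of 206110_at was 0.0536. Of all 27307 tested probe sets, 272, 2849 and 3334 had an unadjusted p under 0.05 at these 3 settings, higher or lower. The count was 0 to 1 over the lines left out. It was 0 with the minimum raised to the 75th percentile and 0 with 1 probe set a gene, both of which drop 206110_at, and 2 with an intensity trend and robust prior, where 5 of all probe sets were called against 1. It was 1 with no level minimum and with each array centred on its median. The median difference of the histone probe sets stayed above 0 in all 11 alternatives (0.10 to 0.41 log2). Of all 27307 tested probe sets, Raji and Namalwa differed in 11281, in 9942 without the replicate block and in 3696 with at least 1 log2. Raji and Ramos differed in 12553, 11202 and 4119 at these settings, and Namalwa and Ramos in 3094, 2097 and 699. With no level minimum, 12908 and 14955 of 54613 differed for the 2 comparisons of Raji. The histone counts at these settings follow. Raji and Namalwa had 12 calls (7 higher, 5 lower) and 8 without the replicate block (3 higher, 5 lower). With no level minimum they had 15, and with at least 1 log2 they had 3. Raji and Ramos had 11 (6 higher, 5 lower) and 8 without the replicate block (3 higher, 5 lower). With no level minimum they had 18, and with at least 1 log2 they had 6. Namalwa and Ramos had 5, 2 without the replicate block and 1 with at least 1 log2. Wherever an array was left out, the lone array of its line was assumed to vary like the others. For single probe sets, 307 values kept their direction and side of the threshold, 4 uncalled values (of H2AC25, H1-3 and H3C8, with a line left out) changed sign, 26 lost a call, 1 gained one (H2BC12) and 0 called values changed sign; the causes were not tested. The number of arrays limits the precision, and signals near background have no detection calls.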
